A study of Mus musculus with 29 samples.

Results

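The genes described here are 10 sarcomere and calcium-handling genes of slow-twitch muscle fibres: the slow troponins Tnnt1, Tnni1 and Tnnc1, the slow myosin light chains Myl2 and Myl3, the slow tropomyosin Tpm3, the calcium pump Atp2a2, the calcium store protein Casq2, and the Z-disc proteins Myoz2 and Csrp3. They were taken by symbol from a table of read counts for 22537 gene symbols in 29 libraries, and all 10 were present and passed the filter on low counts. Poly-A RNA was measured in the entire tibialis anterior (TA), a muscle of the lower leg, of untreated male C57BL/6 mice from the National Institute on Aging colony, and the question was how expression in adult mice differed from that at ages when physical function had declined. The first sequencing run held 7 mice of 6 months (6m) and 7 of 24 months (24m). The second run held those 7 young mice again, in newly prepared libraries, and 8 mice labelled as 28 months or older (28m). Each age was therefore compared with the 6m libraries of its own run, and both comparisons rest on the same young mice.

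Skeletal muscle fibres contract when calcium released from the sarcoplasmic reticulum binds troponin C, which lets troponin and tropomyosin move aside so that myosin can reach actin. Slow fibres and fast fibres build this machinery from different genes, and the slow set is for the most part shared with the heart. The mouse TA is a fast muscle with very few slow fibres, so these genes are a small part of its RNA. Tpm3 and Atp2a2 also give isoforms that are made outside slow fibres, and a count per gene cannot separate them.

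On mouse build GRCm38, Tnnt1 and Csrp3 lie on chromosome 7, Myl2 and Atp2a2 on chromosome 5, and Tpm3, Casq2 and Myoz2 on chromosome 3. Tnni1 lies on chromosome 1, Tnnc1 on chromosome 14 and Myl3 on chromosome 9. The gene models of the 4 genes called below span chr7:4504570-4516382 on the minus strand for Tnnt1 and, on the plus strand, chr1:135779434-135810989 for Tnni1, chr14:31208312-31211729 for Tnnc1 and chr5:122100951-122113472 for Myl2. Counts were summed over each gene's exons.

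The promoters of 5 of these genes are shown for the muscle promoter elements found in them, as context for the troponins, light chains and calcium genes described together below. Of the 10 genes, 9 had a start site in the RefSeq promoter table (GRCm38.p6), and Atp2a2 is named only. Windows from 250 bases before to 50 bases after each start site were searched on both strands for the MEF2 box, the CArG box, the MCAT element CATTCC, the sequence TATAAA and the E-box CANNTG. The 100 bases before the start site follow, 5′ to 3′ on the gene's strand, with matches to the MEF2 box, the CArG box, MCAT or TATAAA in capitals. They are chr7:4515976-4516075 on the minus strand for Tnnt1, chr14:31208212-31208311 on the plus strand for Tnnc1, chr9:110763578-110763677 on the plus strand for Myl3, chr3:102086315-102086414 on the plus strand for Casq2 and chr3:123034988-123035087 on the minus strand for Myoz2.
Tnnt1: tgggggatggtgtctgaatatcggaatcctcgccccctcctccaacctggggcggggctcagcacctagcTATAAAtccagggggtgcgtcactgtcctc
Tnnc1: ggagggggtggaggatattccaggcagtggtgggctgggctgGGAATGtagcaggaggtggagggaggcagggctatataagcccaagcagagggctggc
Myl3: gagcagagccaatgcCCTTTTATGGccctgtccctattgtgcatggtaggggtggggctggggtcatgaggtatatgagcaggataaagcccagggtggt
Casq2: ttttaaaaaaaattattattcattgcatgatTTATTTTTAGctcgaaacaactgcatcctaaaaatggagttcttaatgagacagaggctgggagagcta
Myoz2: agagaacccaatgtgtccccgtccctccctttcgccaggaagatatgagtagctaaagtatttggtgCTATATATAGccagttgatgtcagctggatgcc

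TATAAA began at position -30 in Tnnt1. MCAT, read from the other strand, began at position -58 in Tnnc1, and the Myl3 window held the CArG box at position -85. The MEF2 box, the element bound by MEF2 factors, was in the windows of Casq2 (position -69) and Myoz2 (position -33). The 9 genes have 13 windows, 1 or 2 each. The MEF2 box was in 2 of the 13 and in 3.19% of the 32851 windows of all genes, and the CArG box was in 1 against 1.63%. MCAT was in 2 of the 13 against 14.7% of windows, and TATAAA was in 2 against 13.6%. The E-box was in all 13, and in 72.3% of all windows. In the windows searched, no element other than the E-box was common to the 4 genes that were called at 28m below. Tnni1 held E-boxes alone, Tnnt1 held TATAAA and Tnnc1 held MCAT. Both start sites of Myl2, chr5:122092724 and chr5:122093189, lay before its gene model given above, and the start of that model was not searched. A Myl2 window held TATAAA at position -216, read from the other strand. Such matches describe the letters of these windows and not binding.

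Library totals ran from 17633475 to 33499162 counts with a median of 24250878, and a single library gave the 10 genes between 16 and 8624 counts each. Levels are given as CPM, a gene's counts relative to its library's total after that total was scaled over all libraries by edgeR's TMM method. The defining skeletal muscle transcripts were abundant throughout, with Acta1, Ckm, Des, Ttn and Mylpf together at 62525 CPM or more in every library. The 7 heart markers summed to between 2.02 and 7.31 CPM, 1 of them (Myh6) was expressed highly enough to be tested, and Myl7 was at 0 in every library of 3 of the 4 groups. In whole muscle, fewer fibres of a type and less RNA per fibre cannot be told apart.

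Libraries also differed in how their counts leaned with gene length, expressed as the slope of a library's log2 CPM deviation per doubling of exonic length. The slope was between 0.106 and 0.146 in the second-run 6m libraries and between -0.367 and 0.0701 at 28m. In the first run it was between -0.194 and 0.144 at 6m and between -0.421 and 0.158 at 24m, with 24m replicate 4 the lowest. Because the 10 genes differ in exonic length from 1041 bases (Tnnc1) to 6085 bases (Tpm3), changes are also given with every library freed of a smooth trend across exonic length and GC content. The part of the length slope in the results was not tested beyond those values.

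**Figure D1:**
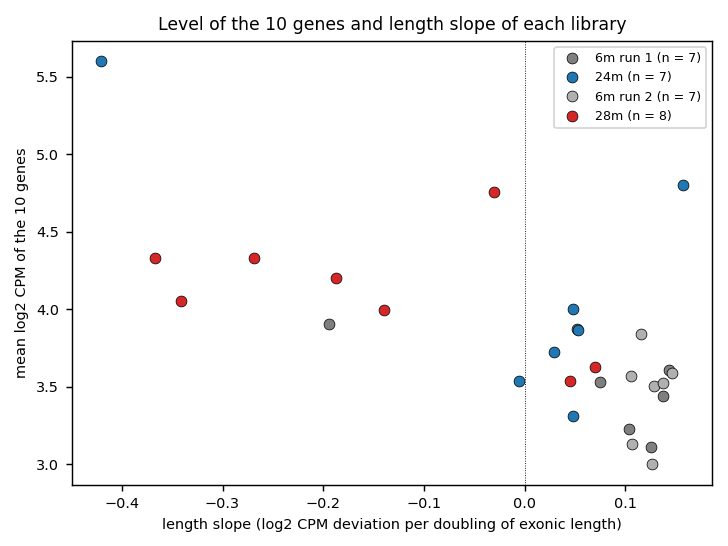
Mean log2 CPM of the 10 genes (vertical axis) against the length slope of each of the 29 libraries (horizontal axis); each point is 1 library, coloured by group. The second-run 6m libraries lie between 0.106 and 0.146, the 28m libraries reach from -0.367 to 0.0701, and 24m replicate 4 stands alone at -0.421 with the highest mean level of the 10 genes.

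Per kilobase of exon, Myl3 was the most abundant of the 10 genes at every age and Casq2 came second in 3 of the 4 groups. In the second-run 6m libraries, Myl3, a slow myosin light chain also used in heart, stood at 21.2 ± 9.98 CPM per kb (SD, n = 7), and Casq2 at 14.5 ± 4.85, a gap smaller than the SD of Myl3. Then came Atp2a2 at 8.26 ± 1.67, Myoz2 at 8.14 ± 0.930 and Csrp3 at 6.13 ± 2.37 CPM per kb, which could not be ordered, their means lying closer together than the SD of Csrp3. Tpm3 followed at 3.52 ± 0.230. Tnnt1 (2.13 ± 1.04) and Tnnc1 (2.03 ± 0.698) could not be ordered against each other, and neither could Tnni1 (0.849 ± 0.815) and Myl2 (0.805 ± 0.257), the least abundant pair. At 28m Myl3 and Casq2 still led, at 31.4 ± 8.81 and 17.4 ± 5.73 CPM per kb (SD, n = 8), and Tnni1 and Myl2 were still the lowest, at 2.11 ± 1.31 and 2.26 ± 1.51. For scale, the fast troponin T gene Tnnt3 stood at 11388 ± 592 CPM per kb at 6m in the second run.

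**Figure D2:**
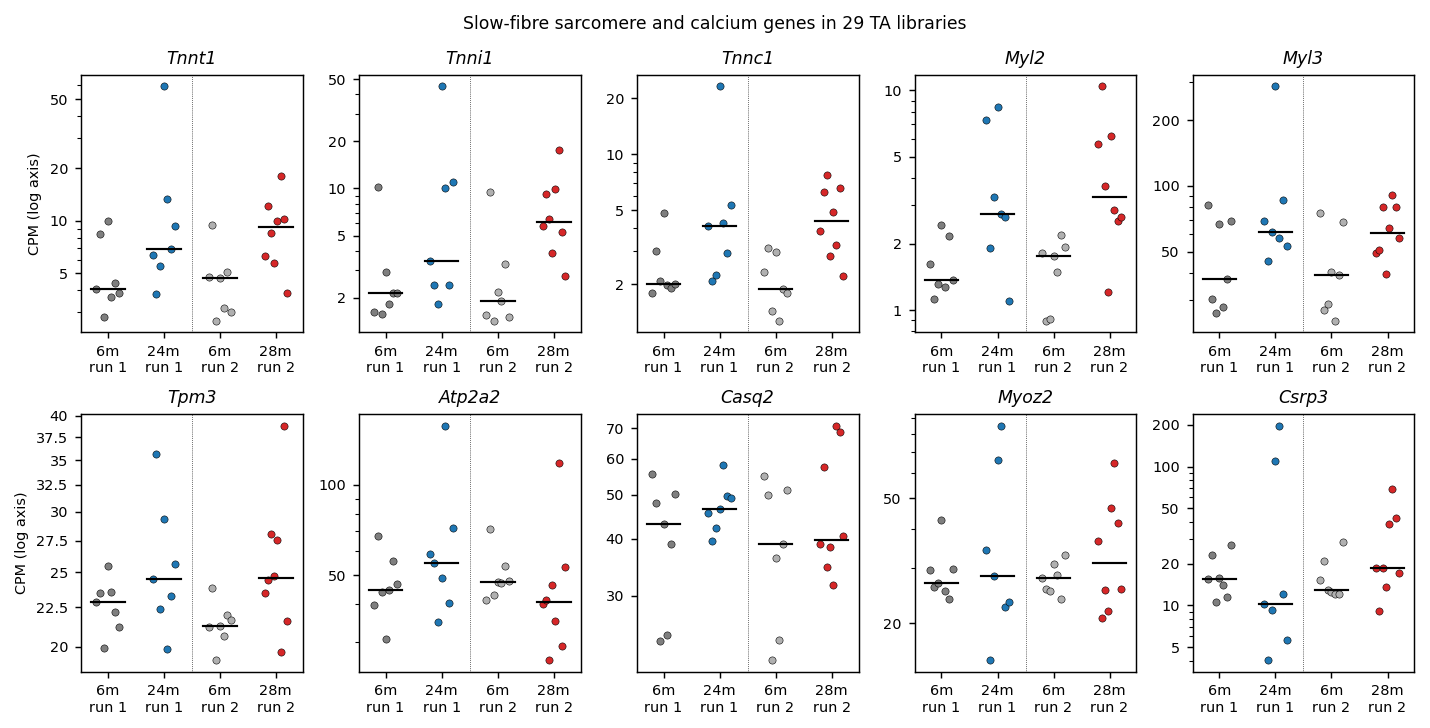
CPM of each of the 10 genes (vertical axis, log scale) in the 4 groups; each point is 1 library, the bars are medians, and the dotted line separates the runs. At 28m, 6 of 8 mice in Tnnc1, 7 in Myl2, 5 in Tpm3, 4 in Tnnt1 and Myoz2, 3 in Myl3, Casq2 and Csrp3, 2 in Tnni1 and 1 in Atp2a2 lie above every second-run 6m library, and at 24m single libraries lie far above the rest in Tnnt1, Tnni1, Tnnc1 and Myl3.

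At 28m, 4 of the 10 genes were higher than at 6m and none was lower: all 3 slow troponins and the slow regulatory light chain Myl2. Calls were made at an adjusted p under 0.05, from edgeR's quasi-likelihood test on counts and the Benjamini-Hochberg method over the 12994 genes tested. Over all genes tested, 24.3% were called higher and 47.3% were called in either direction, so 4 of 10 is to be read against that background. The median log2 fold change of the 10 genes was 0.69, against 0.0091 for all genes, and 9 of the 10 values were positive. No gene of the 10 separated the 28m mice from the 6m mice completely.

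Tnnt1, which anchors the troponin complex to tropomyosin, was at 2.68 CPM in the lowest, 4.70 in the median and 9.42 in the highest of the second-run 6m libraries. At 28m it was at 3.88 in the lowest, 9.21 in the median and 18.02 in the highest, and 4 of 8 mice lay above every 6m library. Its log2 fold change was 0.997 (SE 0.316, 95% interval 0.33 to 1.66, adjusted p = 0.0173). All 15 fits that left out 1 library called it. With the length and GC trend removed it was 0.75 with an adjusted p of 0.0534.

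Tnni1, the inhibitory subunit, was at 1.43 CPM in the lowest, 1.91 in the median and 9.55 in the highest 6m library of the second run. The highest came from replicate 2, with no other 6m library of that run above 3.28. At 28m the lowest was 2.77, the median 6.07 and the highest 17.6 CPM, and 2 of 8 mice lay above that 6m mouse. The log2 fold change was 1.31 (SE 0.455, 95% interval 0.35 to 2.27, adjusted p = 0.0270). It passed in 9 of the 15 fits without 1 library. It was lost without 28m replicate 6 or without any of the 6m replicates 1, 3, 4, 5 and 7, with an adjusted p of at most 0.0592.

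Tnnc1, the calcium-binding subunit, ranged at 6m from 1.27 CPM over a median of 1.88 to 3.11. At 28m it ranged from 2.22 over a median of 4.39 to 7.72 CPM, and 6 of 8 mice lay above every 6m library. Its log2 fold change was 1.16 (SE 0.280, 95% interval 0.57 to 1.75, adjusted p = 0.00418), and all 15 fits without 1 library called it. Its exonic length is the shortest of the 10 genes, and with the length and GC trend removed the change was 0.59 (adjusted p = 0.0342).

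Myl2, the regulatory light chain of slow and ventricular muscle, had the largest fitted change of the 10 genes at 28m, though with the length and GC trend removed Tnni1 was higher, at 1.28, and the gap between them was smaller than either SE. It was the gene with the most 28m mice above the 6m range. At 6m it was at 0.895 CPM in the lowest, 1.76 in the median and 2.19 in the highest library. At 28m the lowest was 1.204, the median 3.28 and the highest 10.5 CPM, and 7 of 8 mice lay above every 6m library. The log2 fold change was 1.48 (SE 0.374, 95% interval 0.69 to 2.27, adjusted p = 0.00532), all 15 fits without 1 library called it, and it was 1.12 with the length and GC trend removed (adjusted p = 0.0221).

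The other 6 genes did not pass. Myl3 ranged from 24.1 over a median of 39.1 to 74.8 CPM at 6m and from 39.6 over a median of 60.9 to 91.0 at 28m. Its log2 fold change was 0.58 (95% interval 0.04 to 1.11, adjusted p = 0.0708), and 3 of 8 mice at 28m exceeded every 6m library. The 6m libraries fell apart here, since replicates 1 and 7 were above the 28m median, and leaving out either of them or 28m replicate 4 brought Myl3 past the threshold. With the length and GC trend removed its log2 fold change was 0.25 (adjusted p = 0.440).

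Tpm3, the slow tropomyosin, varied least at 6m, from 19.2 over a median of 21.3 to 23.8 CPM. At 28m it ran from 19.7 over a median of 24.6 to 38.8 CPM, with 5 of 8 mice above every 6m library. The log2 fold change was 0.29 (95% interval 0.03 to 0.55, adjusted p = 0.0602), and 0.19 without 28m replicate 7, the highest library. It passed without 28m replicate 6 (0.34) or 28m replicate 8 (0.33). Its exonic length is the greatest of the 10, and with the length and GC trend removed it was 0.52 (adjusted p = 0.0133), so under that setting the genes called were Tnni1, Tnnc1, Myl2 and Tpm3, where 21.6% of all genes were called higher and 15.6% lower, 37.2% in all.

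The calcium-handling pair showed no call. Atp2a2 encodes the SERCA2 pump, which returns calcium to the sarcoplasmic reticulum. It ranged from 41.3 over a median of 47.6 to 71.3 CPM at 6m, and from 26.1 over a median of 40.8 to 118 CPM at 28m. Of the 28m mice, 1 lay above every 6m library and 4 lay below every one. The log2 fold change was -0.04 (95% interval -0.59 to 0.51, adjusted p = 0.911). Without 28m replicate 6, the highest library, it was -0.37, and with the length and GC trend removed 0.13.

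Casq2, the slow and cardiac calsequestrin that buffers stored calcium, ran from 21.7 over a median of 39.0 to 54.9 CPM at 6m and from 31.6 over a median of 39.8 to 71.0 at 28m. The medians of the ages were nearly equal, and 3 of 8 mice at 28m lay above the 6m range. The log2 fold change was 0.27 (95% interval -0.21 to 0.76, adjusted p = 0.332). It was 0.079 with the length and GC trend removed and between 0.17 and 0.38 when 1 library was left out.

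Both Z-disc genes spread more at 28m than at 6m, in both directions. Myoz2, a calcineurin-binding protein also named calsarcin 1, ran from 23.9 over a median of 27.9 to 32.9 CPM at 6m. At 28m it ran from 20.9 over a median of 31.1 to 64.7, with 4 of 8 mice above the 6m range and 2 below it. Csrp3, the muscle LIM protein, ran from 12.04 over a median of 13.003 to 28.8 CPM at 6m and from 9.07 over a median of 18.7 to 69.2 at 28m, with 3 mice above and 1 below. The log2 fold changes were 0.36 (95% interval -0.10 to 0.81, adjusted p = 0.178) and 0.81 (95% interval 0.02 to 1.61, adjusted p = 0.0854). Without 28m replicate 6, the highest library of both, they were 0.18 and 0.48, and with the length and GC trend removed 0.19 and 0.60. Csrp3 passed in 2 of the 15 fits without 1 library, those without 6m replicate 7 or 28m replicate 2.

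**Figure D3:**
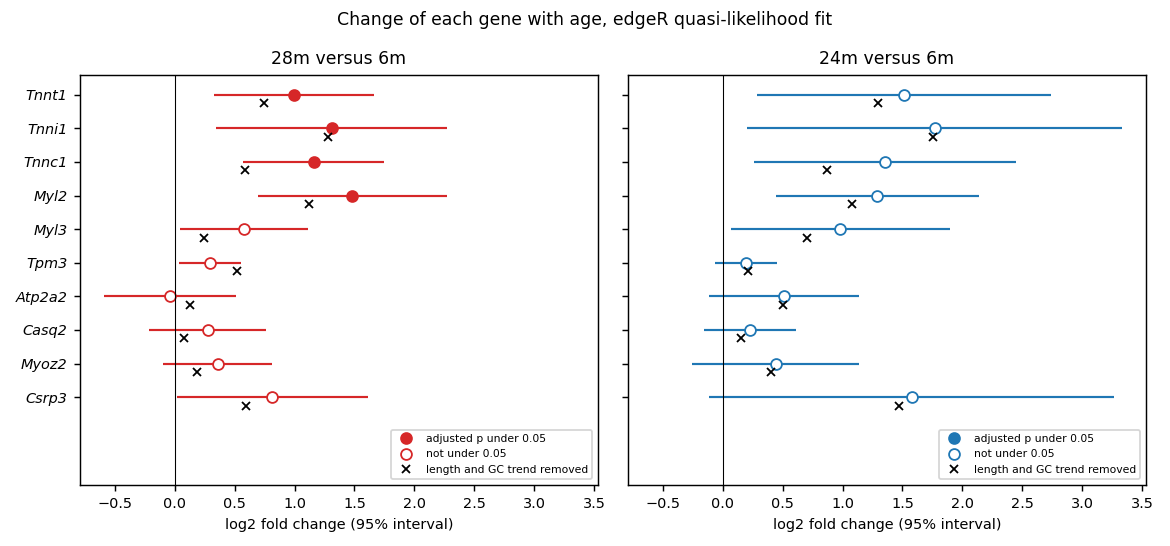
Log2 fold change of each gene at 28m and at 24m against the 6m libraries of the same run (circles, filled where the adjusted p was under 0.05), with 95% intervals; crosses are the values after removal of the length and GC trend. At 28m the circles of Tnnt1, Tnni1, Tnnc1 and Myl2 are filled, at 24m none is, and the 24m intervals of the troponins are wider.

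At 24m, none of the 10 genes passed, although all 10 log2 fold changes were positive. Over all 13103 genes tested, 0.0611% were called higher. At an unadjusted p under 0.05, 5 of the 10 genes and 1546 genes in all were reached, and DESeq2 also called none of the 10. The median of the 10 values was 1.14, against 0.03 for all genes. The values were 1.51 for Tnnt1, 1.77 for Tnni1, 1.35 for Tnnc1 and 1.29 for Myl2, with adjusted p between 0.259 and 0.391. Csrp3 was at 1.58, Myl3 at 0.98, Atp2a2 at 0.51, Myoz2 at 0.44, Casq2 at 0.23 and Tpm3 at 0.20, with adjusted p between 0.405 and 0.590. With the length and GC trend removed the median was 0.79 and again none passed. Tnnc1 moved most, to 0.87, while Tnnt1 was at 1.30, Tnni1 at 1.75, Myl2 at 1.08 and Myl3 at 0.70.

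Much of the size of these 24m values came from 2 libraries, replicates 4 and 5, without which the median of the 10 was 0.25. In replicate 4, Tnnt1 was at 59.2 CPM while the other 24m libraries lay between 3.79 and 13.3, and the first-run 6m libraries ran from 2.80 over a median of 4.07 to 9.99. In the same library Tnni1 was at 45.1 CPM against at most 11.02 in the other 24m mice. Tnnc1 was at 23.2 CPM against at most 5.35, and Myl3 at 286 CPM against at most 86.0. Fast-fibre genes lay apart in that library too. Tnnc2 was at 43719 CPM against at most 11609 in the other 24m mice, and Tnni2 at 33078 against at most 9811.5. Atp2a1 was at 5394 CPM against at least 24792, while Casq1 and Myoz1 lay within the range of the other 24m mice. Replicate 4 exceeded the 6m mean by over 1 on the log2 scale in 7 of the 10 genes, and replicate 5 did so in 5.

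Csrp3 had a wide range at 24m. It was at 198 CPM in replicate 5 and 110 CPM in replicate 4, whereas 4 of the other 24m mice lay below every first-run 6m library, down to 4.05 CPM. The first-run 6m libraries ran from 10.7 over a median of 15.4 to 27.2 CPM. Without replicates 4 and 5 the log2 fold change of Csrp3 was -1.03 and that of Myoz2 was -0.23, both with the opposite sign (adjusted p = 0.231 and 0.697). Myoz2 had been at 85.2 CPM in replicate 5, and so had Atp2a2 been highest there, at 158 CPM against at most 71.8 in the other 24m mice.

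Myl2 depended less on those libraries. It was at 1.13 CPM in the lowest, 1.37 in the median and 2.44 in the highest first-run 6m library, and at 1.10, 2.72 and 8.37 CPM at 24m. Of the 24m mice, 5 of 7 lay above every 6m library and 1 below, and the log2 fold change stayed between 0.98 and 1.46 when any 1 library was left out. Leaving out replicate 4 brought Tnnt1 to 0.51, Tnni1 to 0.68, Tnnc1 to 0.49 and Myl3 to 0.37, the lowest values of these genes over such fits, and the median of the 10 to 0.50.

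**Figure D4:**
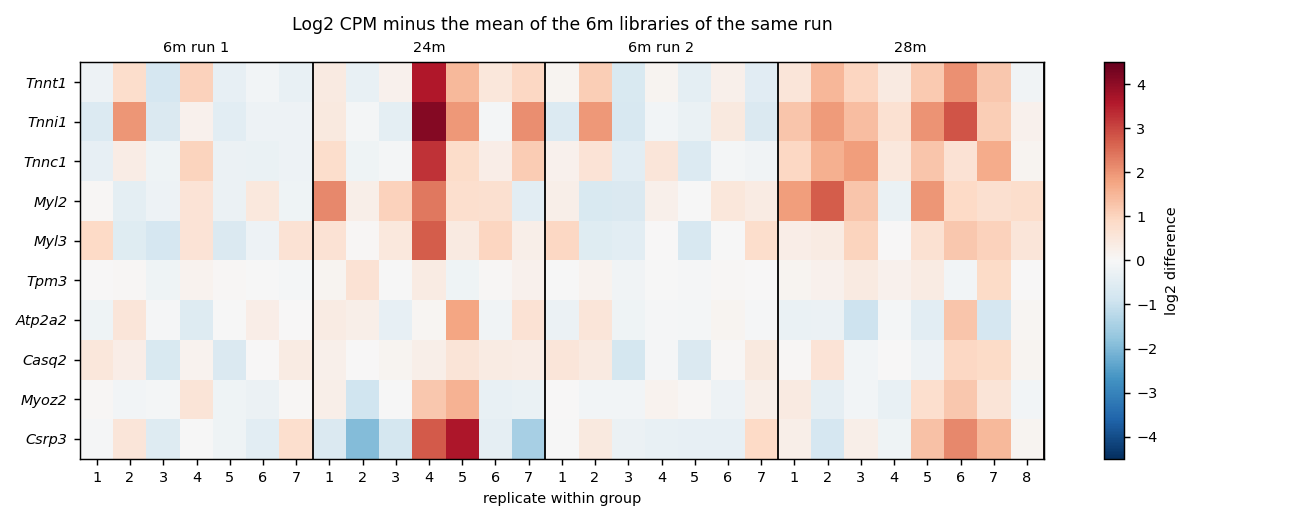
Log2 CPM of each gene (rows) in each library (columns) minus the mean of the 6m libraries of the same run, from blue (lower) to red (higher). 24m replicate 4 is red in the troponins, Myl2, Myl3 and Csrp3, 24m replicate 5 in Csrp3, Atp2a2 and Myoz2 besides Tnnt1 and Tnni1, and at 28m the raised values are spread over several mice.

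At 28m the raised values were shared by more mice. Replicate 6 exceeded the 6m mean by over 1 on the log2 scale in 6 genes, replicates 5 and 7 in 5, replicates 2 and 3 in 4 and replicate 1 in 2, whereas replicates 4 and 8 did so in none. Replicates 4 and 8 were also the only 28m libraries with a length slope above 0, at 0.045 and 0.070. The other 28m libraries had slopes from -0.367 (replicate 7) to -0.031 (replicate 6), and the part of the slope was not tested. Which genes were raised differed between mice: Tnni1 was 2.84 above the 6m mean in replicate 6, where Tpm3 was 0.12 below it. The difference between the age effects was tested over all 29 libraries, taken as separate samples although 7 mice gave 2 each, and none of the 10 genes passed, as 0% of the 13455 genes did. At an unadjusted p under 0.05 there were 1611 genes and none of the 10, and DESeq2 called none of the 10 either. The 28m change minus the 24m change was -0.51 for Tnnt1 (95% interval -1.90 to 0.87), -0.46 for Tnni1, -0.19 for Tnnc1 and 0.21 for Myl2 (95% interval -0.96 to 1.38). It was -0.77 for Csrp3, -0.54 for Atp2a2 (95% interval -1.38 to 0.29), -0.40 for Myl3, -0.07 for Myoz2, 0.06 for Casq2 and 0.11 for Tpm3. The intervals are wide, and without 24m replicate 4 the signs for Tnnt1, Tnni1, Tnnc1 and Myl3 turned positive.

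The 6m mice, sequenced in both runs, show how far a value of these genes can be repeated. The median over the 7 mice of the log2 difference between the libraries of a mouse, taken without sign, was between 0.03 (Casq2) and 0.36 (Tnnc1). The SD between mice was between 0.09 (Tpm3) and 0.92 (Tnni1). Between the runs, in a fit that took the libraries as separate samples, none of the 10 genes was called, nor was any of the 12884 genes tested (0%), while 357 genes and none of the 10 reached an unadjusted p under 0.05. That fit left out the pairing by mouse and so had larger errors. With the mouse as a block the SE was 0.045 against 0.233 for Casq2 and 0.136 against 0.229 for Myl2. None of the 10 was called with the block either. The second-run values minus the first-run ones lay between -0.24 (Tnnc1) and 0.09 (Atp2a2) on the log2 scale, with Tnnt1 at -0.17, Myl3 at -0.16, Tnni1 and Tpm3 at -0.08, Myoz2 at -0.07, Csrp3 and Casq2 at -0.04 and Myl2 at -0.02.

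Some mice held the same place in both libraries. Replicate 2 had the highest Tnni1, with 10.2 CPM in the first run and 9.55 in the second, while replicate 3 had 1.58 and 1.43. In Casq2, replicate 3 was the lowest with 23.9 and 21.7 CPM. Replicate 4 was the 6m mouse whose libraries differed most between runs in 8 of the 10 genes. Its Tnnt1 was at 9.99 CPM in the first run and 4.70 in the second, and its first-run library had the lowest length slope of that group, -0.194.

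That library bore on the 28m result when the first-run 6m libraries took the place of the second-run ones. Then 2 genes were called, Tnnc1 (log2 fold change 0.91, adjusted p = 0.0340) and Myl2 (1.46, adjusted p = 0.0148), and Tnnt1 and Tnni1 had adjusted p of 0.0725 and 0.0605. Without first-run replicate 4, an alternative chosen after its values were seen, 3 were called, with Tnnt1 back at 1.04 (adjusted p = 0.0223).

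Each slow gene except Csrp3 was then set against its fast-fibre partner within a library, a ratio that does not depend on the scaling of libraries. It can still move with the length slope, since partners differ in exonic length, as Tnni1 (3600 bases) and Tnni2 (1497 bases). The ratios were not tested with the length and GC trend removed. Per exonic base, the slow gene made up a small share of each pair. In the second-run 6m libraries the median share was 0.0175% for Tnnt1 with Tnnt3, 0.0101% for Tnni1 with Tnni2, 0.0175% for Tnnc1 with Tnnc2 and 0.0160% for Myl2 with Mylpf. It was higher in the other pairs, at 1.11% for Casq2 with Casq1, 0.761% for Myoz2 with Myoz1, 0.569% for Myl3 with Myl1, 0.141% for Tpm3 with Tpm1 and 0.0651% for Atp2a2 with Atp2a1.

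Over the 9 pairs in both comparisons, 18 two-sided exact permutation tests in all, no adjusted p was under 0.05, and the lowest was 0.123. At 28m the ratio of Tnnc1 to Tnnc2 was higher by 0.54 on the log2 scale (exact p = 0.0174, adjusted p = 0.123). The mean log2 ratio was -11.9 ± 0.223 at 28m (SD, n = 8) and -12.4 ± 0.499 at 6m (SD, n = 7). The ratios of Tnnt1 to Tnnt3 and Tnni1 to Tnni2 were higher by 0.54 and 0.76, with exact p = 0.150 and 0.173. For Myl2 to Mylpf the difference was 0.41 (exact p = 0.298). Mylpf itself rose by 0.93 (adjusted p = 0.000648), with all 8 mice at 28m above every 6m library, and by 0.38 with the length and GC trend removed.

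At 24m the ratio of Myl2 to Mylpf was higher by 0.84 (exact p = 0.0198), that of Casq2 to Casq1 by 0.57 (exact p = 0.0216), that of Myl3 to Myl1 by 1.001 (exact p = 0.0274) and that of Tnnc1 to Tnnc2 by 0.75 (exact p = 0.0379). None passed after adjustment, with adjusted p between 0.123 and 0.136. In Myl3 to Myl1, 1 of 7 mice at 24m lay above the 6m range, and in Myl2 to Mylpf 4 of 7 did.

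**Figure D5:**
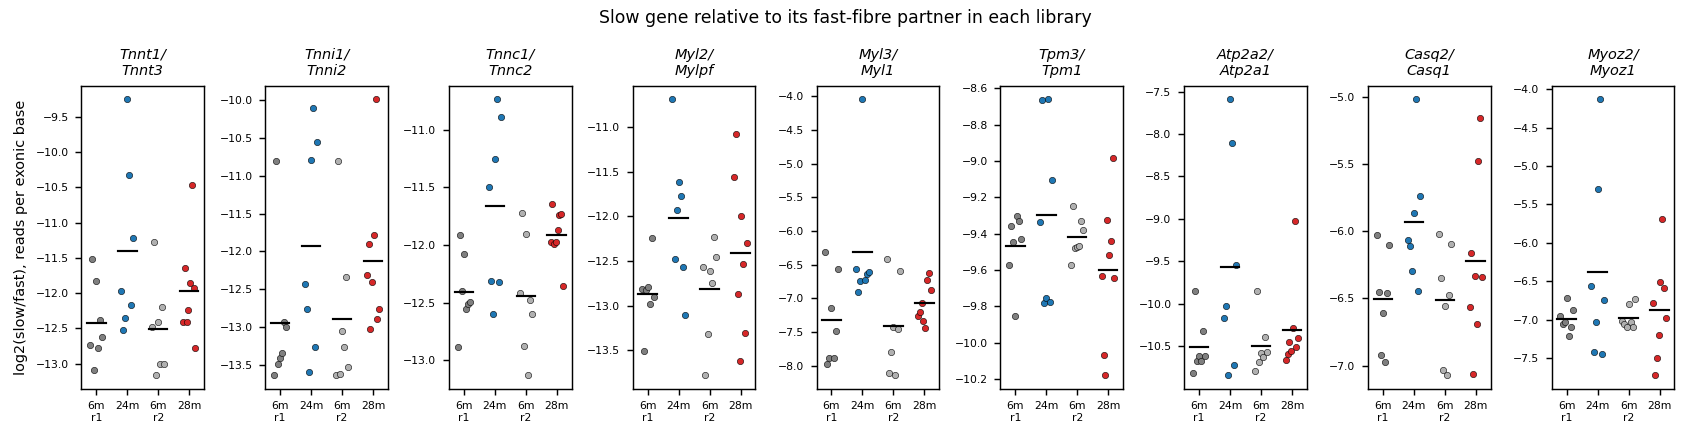
Log2 ratio of each slow gene to its fast partner in reads per exonic base (vertical axis, a separate scale for each pair) in the 4 groups (r1 and r2 are the runs; 24m is of run 1 and 28m of run 2); each point is 1 library and the bars are means. The ratios lie far below 0, and the ages overlap in all 9 pairs; 28m values of Tnnc1 to Tnnc2 gather at the upper end of the 6m values.

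Of 15 fast-fibre genes, 7 were higher and 1 was lower at 28m, where 24.3% of all genes were called higher, 22.9% lower and 47.3% either way: Mylpf, Tnni2 (log2 fold change 0.80), Tnnc2 (0.67), Pvalb (0.62), Tpm1 (0.49), Tnnt3 (0.47) and Myl1 (0.33) rose, and Myh4, the heavy chain of the fastest fibres, fell by 0.48 (adjusted p = 0.0119). With the length and GC trend removed, Tpm1 (0.77), Tnni2 (0.38, adjusted p = 0.0481) and Mylpf (0.38) were still called higher and none was lower. Under that setting 21.6% of all genes were called higher, a share near that of the 15, and 15.6% lower. Tnnc2 was then at 0.054, Tnnt3 at 0.058, Pvalb at 0.025 and Myl1 at -0.0024. Myh7, the slow myosin heavy chain, did not pass, with a log2 fold change of 0.24 (adjusted p = 0.626), or 0.71 with the trend removed (adjusted p = 0.172). It ran from 2.40 over a median of 3.22 to 6.46 CPM at 6m in the second run and from 1.39 over a median of 2.97 to 13.2 CPM at 28m.

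Among 12 other genes of slow or oxidative fibres, 5 were higher and 1 was lower at 28m, a share near the 47.3% called over all genes. Mb, the oxygen-binding myoglobin, rose by 0.94 (adjusted p = 0.00970), Lmod2, which elongates thin filaments, by 0.82 (adjusted p = 0.00767), Pln, the inhibitor of the SERCA2 pump, by 0.65 (adjusted p = 0.00290), Ankrd2 by 0.64 and Myl6b by 0.38. Myh7b fell by 0.79 (adjusted p = 0.0177). With the length and GC trend removed 1 of the 12 was called higher, Pln with 0.34 (adjusted p = 0.0449), and none lower. Over all genes 21.6% were called higher and 15.6% lower under that setting. The median of the 12 was 0.36. At 24m none of the 12 or of the 15 fast-fibre genes passed.

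Of 23 listed regulators of fibre type, 22 were tested at 28m, 14 were lower and 1 was higher, with a median of -0.50, where 22.9% of all genes were called lower. Tead4, of the family that binds MCAT elements, fell by 1.195 (adjusted p = 0.0243), and with the length and GC trend removed by 1.19 (adjusted p = 0.0229). Mef2a, of the family that binds the MEF2 box, fell by 1.12 (adjusted p = 0.0461), and with the trend removed by 0.82, which did not pass (adjusted p = 0.0898). Of the same family, Mef2d fell by 0.92 (0.75 with the trend removed), while Mef2c was at 0.07 and was called higher, at 0.51, with the trend removed (adjusted p = 0.000566). Sox6, a repressor of slow-fibre genes in fast fibres, fell by 0.98 (adjusted p = 0.00307), and with the trend removed by 0.55 (adjusted p = 0.00869). Ppp3ca, a catalytic subunit of calcineurin, rose by 0.26 (adjusted p = 0.0156), and by 0.65 with the trend removed. Also lower were Nfatc3 (-0.87), Ppard (-0.64), Nfatc1 (-0.53), Esrrg (-0.47) and Ppargc1a (-0.44). With the trend removed these were at -0.46, -0.34, -0.22, -0.36 and -0.29, and of them only Nfatc1 did not pass (adjusted p = 0.0995). The part of any regulator in the slow-fibre values was not tested. With the trend removed 10 of the 22 were lower and 3 higher, beside 15.6% and 21.6% of all genes under that setting, and at 24m none of the 23 passed.

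Of 9 genes of the denervation response, 6 were higher at 28m and none lower, against 24.3% higher over all genes, with a median of 1.84, among them Chrng, the fetal acetylcholine receptor subunit, at 3.52 (adjusted p = 0.00322), and Gadd45a, a stress-response gene, at 2.11 (adjusted p = 0.000346). Of 7 embryonic and neonatal muscle genes 3 were higher: Myog, a myogenic factor that is also in the denervation list, at 2.09 (adjusted p = 0.00248), the embryonic light chain Myl4 at 1.55 and Tnnt2, the embryonic and cardiac troponin T, at 1.27 (adjusted p = 0.00232 and 0.00433). Myh3, Myh8, Myod1 and Actc1 (-0.51) did not pass, nor did Musk (-0.62) of the denervation list. At 24m no gene of either list passed, with medians of 2.64 and 1.85. Summed over the list, the denervation genes were between 82.3 and 526.1 CPM at 28m and between 47.5 and 78.7 in the second-run 6m libraries. At 24m they ran from 70.9 over a median of 94.5 to 988.9 CPM, against a median of 61.5 in the first-run 6m libraries. Their part in the slow-fibre values was not tested.

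Over all genes, 22.9% were called lower and 24.3% higher at 28m. Among short lists of markers of other cell types, all 4 endothelial markers were lower, with a summed level between 160 and 264 CPM against 328 to 367 at 6m in the second run, as were 3 of 5 fibroblast markers and 1 of 3 satellite cell markers. The single heart marker tested, Myh6, had a log2 fold change of -0.82 (adjusted p = 0.0454), and of -0.55 with the length and GC trend removed (adjusted p = 0.133). Of the smooth muscle markers 1 of 5 was higher and 1 lower, and 1 of 4 Schwann cell and 1 of 4 tendon markers was higher. Of the macrophage and adipocyte markers, 4 each in the table, none was called. Of 4 erythrocyte markers 2 were in the table, Hba-a1 and Hba-a2, and both were at 0 in every library. Erythrocyte RNA could therefore not be judged from this list. With the length and GC trend removed, 3 endothelial markers and no fibroblast marker were called lower. At 24m no marker passed, and the part of other cells in the results was not tested.

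Within an age the 10 genes differed in how closely they followed one another. In the second run, the correlation across 15 libraries of a gene's deviation from its group mean with the mean deviation of the other 9 was highest for Tnnt1 (Pearson r = 0.79, Spearman's rho = 0.76) and Casq2 (r = 0.65, rho = 0.70). By Pearson r it was low for Myl2 (r = 0.12, rho = 0.11), and Tpm3 and Atp2a2 were both at r = 0.13, with rho at 0.43 and 0. In the first run, over 14 libraries, Tnnt1 was again highest (r = 0.91, rho = 0.88) and Tpm3 lowest (r = -0.08, rho = 0.12). Without the 2 libraries farthest from the median, Tnnt1 was at r = 0.72 in the second run and 0.81 in the first. In the second run Tpm3 was then at 0.62, Atp2a2 at 0.31 and Myl2 at 0.17, and in the first Atp2a2 went from 0.11 to 0.66 and Tpm3 was at -0.0063. These points share depth, scaling and length slope, and no p is given.

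The genes outside the 10 that deviated most like their mean were Sh3glb2 (r = 0.92, rho = 0.87), Hmgn2 (r = 0.91, rho = 0.96), Copz2 (r = 0.90, rho = 0.91), Mvk (r = 0.90, rho = 0.83) and Hes6 (r = 0.88, rho = 0.95) in the second run, among 11958 genes. In the first run they were Copz2 (r = 0.95, rho = 0.92), Lrrcc1, Mustn1, Ppp2r3d and Vgll2 (r = 0.94, rho = 0.92), among 12019 genes. Without the 2 libraries farthest from the median, r was between 0.83 and 0.87 in the second run and between 0.86 and 0.89 in the first. Copz2, a coat protein subunit of Golgi vesicles, was in the first 5 of both runs, which share the 6m mice. None of the slow-fibre, fast-fibre or regulator genes listed above other than Vgll2 was among them.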

How the data were processed

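Poly-A RNA of the TA was sequenced as 75-base single-end reads in 29 libraries of 22 mice. The authors demultiplexed with bcl2fastq 2.20 and aligned to mm10 with STAR 2.5.4b, per the submitters' processing notes, and deposited the raw counts of reads per gene, with no normalization. The strand setting of the counting is not given in the sources used here, so counts of genes that overlap another gene or have near-identical copies are uncertain. No column lacked a mapped sample, and no pair of libraries held identical counts.

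Counts were tested with edgeR 4.0.16 in R 4.3.3 (filterByExpr, TMM over the libraries compared, quasi-likelihood F test, two-sided, Benjamini-Hochberg over all genes tested, threshold 0.05) and tested on simulated data first. The labels name the mice, so the 6m libraries of the runs are paired by mouse. The reported fits across runs took them as separate samples, and the pairing entered as an alternative. P-values within a run measure the spread between mice. Levels are CPM on a TMM scale over all libraries. Exonic lengths are GENCODE vM21 gene models, matched by symbol for 20202 symbols and by synonym for 1888; trends with length and GC content were natural splines with 5 degrees of freedom each. Alternatives were DESeq2 1.42.0, its size factors, upper-quartile scaling, 2 other filters, the trend removed, the other run's 6m libraries, each library left out, and a mouse block (limma 3.58.1 or edgeR). Slow and fast genes were compared as ratios of reads per exonic base by exact permutation over libraries, with BH over 18 tests. Figures used matplotlib 3.10.9 in Python 3.11.15. The text names the 10 genes in every comparison, their fast partners, Myh7 and the 5 most alike genes in each run. It also names examples from each list, with the largest changes past the threshold among them. The genes and lists were chosen with earlier results of these data known.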

Additional observations from a re-analysis of the deposited data

Results flagged for a closer look

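In each gene and group the highest or lowest library was examined by Dixon's test at the 95% level. In independent groups of normally distributed values that test flags about 1 in 20. Here it was run on CPM without logs, and the groups share mice and libraries, so that rate does not apply. Of 40 such groups 13 held a library that stood apart, always the highest: 5 at 24m, 3 in each 6m group and 2 at 28m.

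24m replicate 4 stood apart in Tnnt1 (59.2 CPM), Tnni1 (45.1 CPM), Tnnc1 (23.2 CPM) and Myl3 (286 CPM), and it also had the lowest length slope of all libraries. This was not particular to slow-fibre genes. The fast partners Tnnc2 and Tnni2 were highest of the 24m mice there, at 43719 and 33078 CPM, and Atp2a1 was lowest, at 5394 CPM. 24m replicate 5 stood apart in Atp2a2, at 158 CPM against at most 71.8 in the other 24m mice. At 28m, replicate 6 stood apart in Atp2a2 (118 CPM, the others at most 53.1) and replicate 7 in Tpm3 (38.8 CPM, the others at most 28.0).

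One 6m mouse, replicate 2, was apart in Tnni1 in both of its libraries, at 10.2 CPM in the first run and 9.55 in the second. In the second run it was also apart in Tnnt1, at 9.42 CPM with the others at most 5.12, and in Atp2a2, at 71.3 CPM with the others at most 53.7. First-run 6m replicate 4 was apart in Tnnc1 at 4.84 CPM and in Myoz2 at 42.6 CPM, and its second-run library was not.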

How the results depend on the processing

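At 28m the count of the 10 genes called was 4 as reported and 2 with the 6m libraries of the other run. It was 3 to 5 when 1 library was left out, 5 with upper-quartile scaling, 3 with the other run's 6m libraries without replicate 4, and 4 under the other 6 alternatives. The share of all genes called at 28m was counted only as reported and with the length and GC trend removed. At 24m, for the difference between the age effects and between the runs, the count of the 10 genes called stayed 0 throughout. For the 9 pairs, no test passed with the other run's 6m libraries or with any 1 library left out. The pairs were not tested with the length and GC trend removed.

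Signs turned for values that did not pass. For Atp2a2 at 28m, reported as -0.04, the log2 value was 0.13 with the length and GC trend removed, 0.052 with the other run's 6m libraries, 0.16 without 28m replicates 3 and 7, and between -0.37 and 0.068 when 1 library was left out. At 24m without replicates 4 and 5, Myoz2 was at -0.23 and Csrp3 at -1.03. The ratio of Myoz2 to Myoz1 at 28m was between -0.067 and 0.22 when 1 library was left out.

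The difference between the age effects, when 1 mouse was left out, ran from -0.72 to 0.51 for Tnnt1, from -0.74 to 0.65 for Tnni1, from -0.33 to 0.70 for Tnnc1, from -0.10 to 0.53 for Myl2, from -0.51 to 0.24 for Myl3, from -0.045 to 0.13 for Casq2, from -0.25 to 0.23 for Myoz2 and from -1.08 to 0.21 for Csrp3. For Tnnt1, Tnni1, Tnnc1 and Myl3 the turn came from 24m replicate 4, and for Csrp3 from 24m replicate 5. Casq2 was at -0.062 with the length and GC trend removed.

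With the mouse as a replicate block (limma-voom), the difference was 0.27 for Tnni1, 0.20 for Tnnc1, 0.053 for Myoz2 and 0.44 for Csrp3, with 0 genes called. The block also left 0 called between the runs. The values between the runs, when 1 mouse was left out, lay between -0.28 and 0.044 for Tnnt1, -0.13 and 0.071 for Myl2, -0.12 and 0.021 for Myoz2, and -0.091 and 0.00026 for Csrp3. The cause of these shifts was not tested.

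Counts of Tnnc1, Tnni1 and Myl2 in single 6m libraries were as low as 25, 25 and 16, which limits how precisely a mouse's level is known.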
